A study of Rattus norvegicus with 232 samples.

Results

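The unannotated features of the rat MHC region are 203 reconstructed brain transcription units that start on chromosome 20 between 0 and 7 Mb of the rn6 genome and carry no reference gene identifier or name there. They were chosen by position and by the missing name alone, with no expression value, from a table of 99376 features. The comparison groups were the 1120 features without a name that start further along chromosome 20, the 335 named features of the same region and the 623 named features of the rest of the chromosome.

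The major histocompatibility complex (MHC) of the rat is called RT1 and lies near the start of chromosome 20. Its class I and class II genes encode the cell surface proteins that present peptides to T cells, the class III stretch between them holds complement, cytokine and other genes, and inbred strains carry different RT1 haplotypes. BN and SHR are known to differ in RT1 haplotype, while DA, ACI and COP are classically typed alike. Gene copies of class I are near-identical in sequence and their number differs between haplotypes, so reads of 1 copy can be assigned to another.

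RNA expression was measured by sequencing of ribosomal-RNA-depleted libraries from brain tissue of untreated rats labelled as male, with 3 animals per strain and 135 animals of 45 inbred strains. By the study's methods, the tissue of an animal was 1 side of its sagittally divided brain. The 30 recombinant inbred strains of the HXB/BXH family (20 HXB and 10 BXH, from the reciprocal crosses) descend from BN-Lx/Cub and SHR/OlaIpcv, so that each of these strains carries the RT1 region of 1 progenitor unless it recombined there. The 15 classic inbred strains were BN-Lx/Cub, SHR/OlaIpcv, SHRSP/A3NCrl, WKY/NCrl, LEW/Crl, LEW/SsNHsd, F344/NCrl, F344/NHsd, F344/Stm, LE/Stm, SS/JrHsd, SR/JrHsd, DA/OlaHsd, ACI/SegHsd and COP/CrCrl. No group was treated, and the strain is the only factor compared. By those methods, brains of the HXB/BXH strains and their progenitors came from a colony in Prague and were stored in liquid nitrogen. Those of the other classic inbred strains came from commercial suppliers and were put into RNAlater. Source and storage therefore cannot be told apart from strain where these sets differ. In bulk tissue, fewer cells of a type and less RNA per cell cannot be told apart.

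All values are the deposited ones, on a log2 scale and not per length, so that the order of levels between features is not one of abundance. Groups of features by mean level refer to this scale. Library medians ran from 3.52 to 4.10, and depth is unknown because the table holds no counts. Over 35569 strain-variable features of other chromosomes, 126 of 135 libraries resembled the remaining animals of their strain most. These features were called for strain with the same labels and libraries, which favours such a match. The library labelled SHRSP/A3NCrl 1 was nearest to F344/NCrl (r = 0.381 against 0.25 for its own strain), and the library labelled F344/NCrl 2 was nearest to SHRSP/A3NCrl (r = 0.371 against 0.201). The 3 LEW/Crl libraries, although labelled male, held the Y-linked gene Kdm5d at 7.73 to 8.46 against a median of 11.2 and a lowest value of 7.85 elsewhere. Eif2s3y was low as well (6.38 to 7.77, against a median of 10.7 and a lowest value of 7.06). Ddx3y was not (2.66 to 3.24, against a median of 2.79). Summed liver markers, a sum of the deposited log2 values of 4 genes, reached 101 in an LE/Stm library, while no library of another strain passed 54.1. Over all libraries, the highest mean of any of these genes was 9.98. The table holds 37 values over 30, treated as implausible, and their part in the sum of 101 was not tested. An amount of liver RNA is therefore not read from it. Neuronal markers were high in every library (4 of 4 found, summed level 54.8 to 58.1).

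The structure of the members was described first. Of 203, 138 had 2 or more exons and 65 had 1 exon, 196 had a single transcript, and the summed exon length had a median of 1237 bp (202 to 11509 bp). The mean level over all animals ran from 0.479 to 7.72 with a median of 2.98, and 66 members lay above the table median of 3.71 on the deposited scale. On the opposite strand of a named feature, 77 members overlapped its exons and 51 overlapped its span but not its exons. Another 11 overlapped a span on the same strand but not its exons, and 64 lay between named features. Overlap of a span without exons is called in an intron below, although some of these members reach past the named feature. The nearest or overlapping name was most often RT1-CE10, a class I gene (13 members), the olfactory receptor gene Olr1668 (13) or AC094221.4 (13). RT1-M3-1, another class I gene, was nearest to 8 members. Because 80 members share exon bases with another member on either strand, neighbouring members are not independent measurements.

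Strain explained more of the variance of the members than of unnamed features elsewhere on the chromosome. Strain R2, the share of the total sum of squares that lies between strains, served as the broad-sense heritability, and a feature with no strain effect averages 0.328 in this layout. The median R2 of the members was 0.445 (0.151 to 0.949), against 0.408 for unnamed features of the rest of chromosome 20, 0.478 for named features of the region and 0.419 for the whole table. An R2 of 0.7 or more was found for 30 members (14.8%), compared with 58 named features of the region (17.3%), 51 unnamed features (4.55%) of the rest of the chromosome and 4.21% of the table. At a 5% false discovery rate (FDR) in the moderated F-test of limma over all features, 100 of 203 members (49.3%) were called for strain, where the background is 36.7% of all features. The share was 34.7% (389 features) among unnamed features of the rest of chromosome 20 and 54.3% among the named features of the region. At the edge, the unnamed features nearest to 7 Mb on the inside were PRN6.5G0216426 and PRN6.5G0216430, with R2 values of 0.185 and 0.303, and on the outside PRN6.5G0216434 and PRN6.5G0216436, with 0.384 and 0.438.

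**Figure D1:**
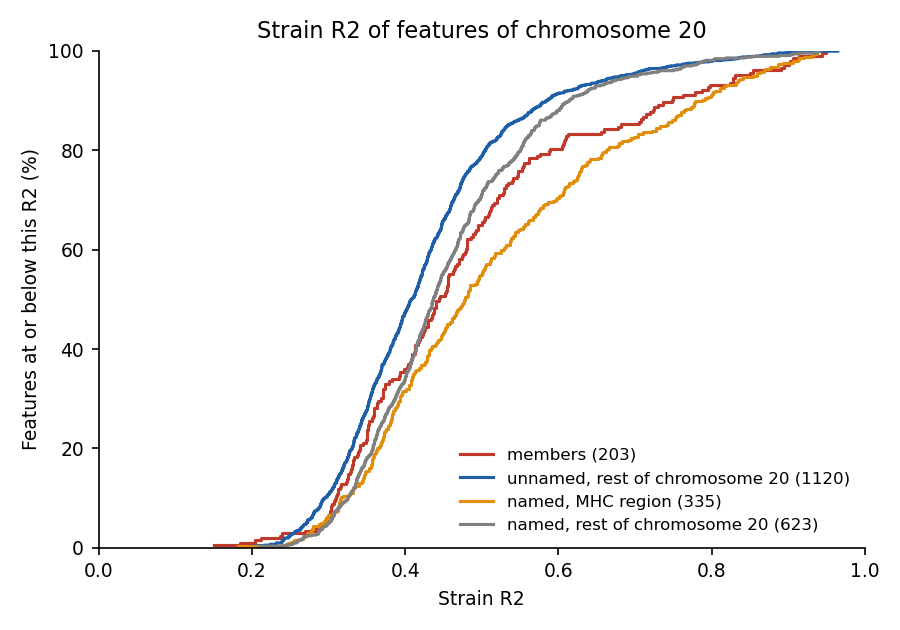
Cumulative share of features (y axis, percent) at or below a given strain R2 (x axis, no unit) for the 203 members, the 1120 unnamed features of the rest of chromosome 20, the 335 named features of the region and the 623 named features of the rest. The curve of the members runs to the right of that of the other unnamed features and its upper part lies near the curve of the named features of the region.

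The members were called more often than the unnamed features elsewhere on the chromosome at each mean level. Among features with a mean under 2, 27.6% of members and 22.5% of the unnamed features elsewhere on the chromosome were called. From 2 to 4 the shares were 51.1% and 35.7%, and at 4 or more they were 69.1% and 46%. The named features of the region were called in 29.6%, 40.9% and 63.3% at the same levels, below the members in the middle and upper groups. The gap was small for features of 1 exon (33.8% against 30.5%) and larger for features of 2 or more exons (56.5% against 37.9%). By position relative to named features, 50.6% of members antisense to exons were called, 56.9% of those antisense in an intron, 37.5% of those between named features and 8 of the 11 in an intron on the same strand. With the sequencing batch as a covariate, 59 members (29.1%) were called where the background is 22.9%, so that the excess remained while both shares fell. Without the libraries labelled SHRSP/A3NCrl 1, F344/NCrl 2 and all LE/Stm the count was 94 (background 35.4%), and without LEW/Crl it was 96 (background 35.3%).

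Members with high R2 were spread unevenly along the region. The first Mb held 31 members, 9 of which had an R2 of 0.7 or more. No member between 1 and 2 Mb, where 27 members lie, reached that value, and 1 of 17 did between 2 and 3 Mb. The counts were 5 of 29 from 3 to 4 Mb, 4 of 25 from 4 to 5 Mb, 8 of 48 from 5 to 6 Mb and 3 of 26 from 6 to 7 Mb.

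**Figure D2:**
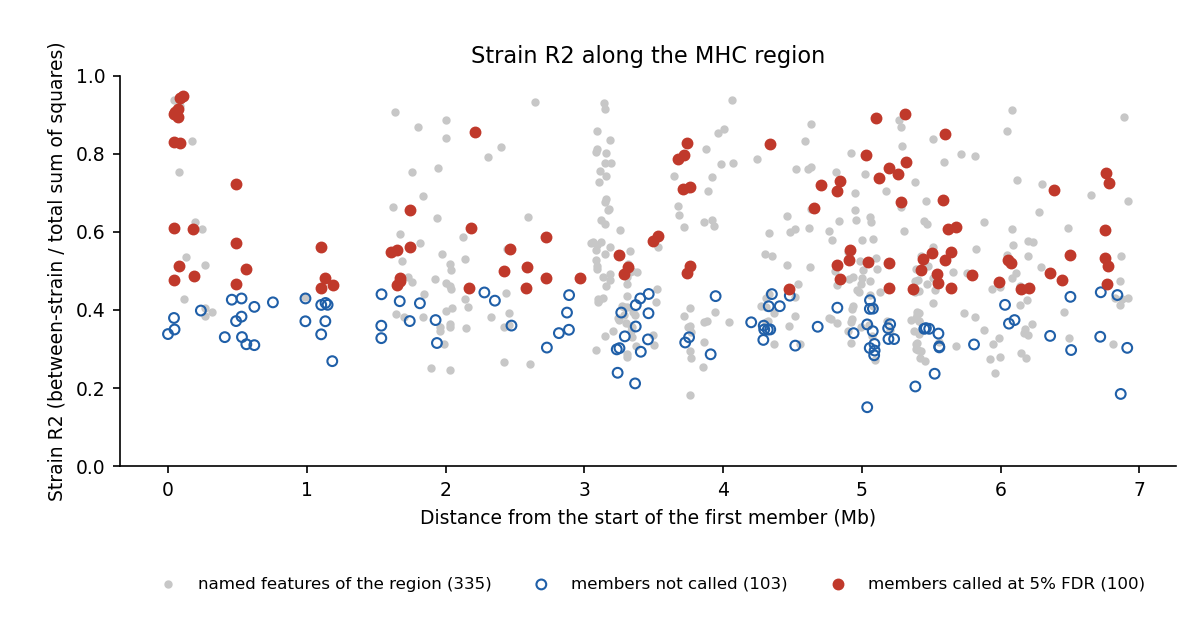
Strain R2 (y axis, no unit) of each feature against its distance from the start of the first member (x axis, Mb). Filled red points are the 100 members called for strain, open blue points are the 103 members not called and grey points are named features of the region. A dense group of called members with R2 near 0.9 stands at the left end, around RT1-CE10.

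Of the 6 members with an R2 of 0.9 or more, 5 lie around RT1-CE10 and Clic2. The highest was PRN6.5G0215627 (chromosome 20, 167661 to 173408, minus strand, 2 exons, R2 = 0.949). Its end overlaps the chloride channel family gene Clic2 (172311 to 242062) on the opposite strand without shared exon bases. Next came PRN6.5G0215618 (146449 to 175553, plus strand, R2 = 0.944), PRN6.5G0215609 (132278 to 137922, plus strand, R2 = 0.914), PRN6.5G0215607 (104996 to 165761, minus strand, R2 = 0.907) and PRN6.5G0215598 (98772 to 131381, plus strand, R2 = 0.903), all within or across RT1-CE10. PRN6.5G0215608 (125825 to 131379, R2 = 0.894) and PRN6.5G0215602 (100934 to 165035, R2 = 0.831) overlap the same gene from the plus strand. For PRN6.5G0215607, HXB strain means ran from 3.10 to 4.88 and BXH strain means from 2.61 to 4.51. It had means of 4.17 in BN-Lx/Cub, 2.82 in SHR/OlaIpcv and 3.39 in SHRSP/A3NCrl, against an inbred median of 1.74. Part of its R2 thus lies between the HXB/BXH family and most inbred strains, where source and storage cannot be told apart from strain. PRN6.5G0216215 (5365726 to 5381130, plus strand, R2 = 0.901) lies antisense in introns of Vps52, a vesicle tethering gene, and Wdr46. The named class I feature RT1-CE10 (PRN6.5G0215603, 102240 to 157665, minus strand) had an R2 of 0.938 itself. Reads of a near-identical class I copy cannot be told apart from those of the members that overlap it. The study's methods name a stranded library kit, but the strand setting of the counting is not given in the sources used here. Whether reads of the opposite strand enter the values of these members therefore cannot be told.

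The progenitors of the HXB/BXH family were compared first among the strain pairs. Of the members, 17 (8.37%) passed 5% FDR between BN-Lx/Cub and SHR/OlaIpcv in limma, where the background is 2.10% of all features. In BN-Lx/Cub, 12 were higher (background 1.07%) and 5 were lower (background 1.02%). By the study's methods, the strain-specific genomes used for alignment differed from rn6 only in single-base variants. How far the match of a strain's RT1 haplotype to rn6 enters these differences was not tested. With an absolute difference of at least 1 as well, 14 members (6.90%) were called, where the background is 1.84%. By the batch characteristic, the BN-Lx/Cub and SHR/OlaIpcv libraries in this table shared no sequencing batch. The column of SHR/OlaIpcv 3 matches 2 deposited samples and the title of 1 of them gives batch 4, that of BN-Lx/Cub 3. With batch as a covariate 6 members (2.96%) were called against a background of 1.08%.

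PRN6.5G0215627, the member that overlaps the Clic2 span, measured 6.36, 6.59 and 6.89 in the BN-Lx/Cub animals and 2.41, 2.49 and 3.35 in the SHR/OlaIpcv animals. The lowest BN-Lx animal stood far above the highest SHR animal. The difference was 3.86 (SE 0.387, limma adjusted p = 5.18e-13), a fold of 14.6. Clic2 itself, at a difference of 0.85 (SE 0.441), did not pass the test (limma adjusted p = 0.568). PRN6.5G0215618 measured 5.80, 6.00 and 5.84 in BN-Lx/Cub and 2.30, 2.11 and 2.37 in SHR/OlaIpcv, again without overlap. Its difference was 3.62 (SE 0.423, limma adjusted p = 2.27e-10), a fold of 12.3.

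Of the 10 members that overlap RT1-CE10, 7 had higher means in BN-Lx/Cub and 3 lower ones. The latter, PRN6.5G0215604, PRN6.5G0215606 and PRN6.5G0215611, differed by -0.17, -0.68 and -0.76 and did not pass the test, and they were not on the list of members to be named. PRN6.5G0215609 measured 6.45, 6.56 and 6.74 in BN-Lx/Cub against 5.29, 4.95 and 5.01 in SHR/OlaIpcv, a difference of 1.50 (SE 0.189, limma adjusted p = 3.1e-09). PRN6.5G0215608 measured 7.57, 7.98 and 7.90 against 6.19, 4.58 and 6.45, a difference of 2.08 (SE 0.385, limma adjusted p = 8.72e-05). The SHR animals of this member were widely spread, with 1 animal far below the others. Without replicate 2, the number of that animal, the difference was 1.42 and did not pass (limma adjusted p = 0.274). PRN6.5G0215615 differed by 1.50 (limma adjusted p = 0.00245) and PRN6.5G0215607 by 1.35 (limma adjusted p = 0.0112). PRN6.5G0215598 differed by 0.91 (limma adjusted p = 0.0315), while PRN6.5G0215602, at 0.86, did not pass (limma adjusted p = 0.119). RT1-CE10 (PRN6.5G0215603) differed by 2.06 (SE 0.194, limma adjusted p = 4.15e-14), and its part in the values of the overlapping members was not tested.

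Further along the region, differences went in both directions. PRN6.5G0215983, a single-exon member in an intron of AABR07044383.1 on the same strand (3774551 to 3775988), measured 4.34, 4.23 and 4.98 in BN-Lx/Cub and 2.53, 2.43 and 1.48 in SHR/OlaIpcv, a difference of 2.37 (SE 0.442, limma adjusted p = 0.000102). PRN6.5G0216188 (5155696 to 5156319, minus strand, 1 exon), antisense to exons of Ncr3, a receptor gene of natural killer cells, measured 2.97, 3.40 and 4.09 against 1.07, 1.57 and 1.12. The groups did not overlap in either, and the second difference was 2.23 (SE 0.46, limma adjusted p = 0.000624). Ncr3 itself differed by -0.17 and did not pass (limma adjusted p = 0.977). PRN6.5G0215987 (3793505 to 3798508), antisense to exons of AABR07044383.1, was higher in BN-Lx/Cub by 0.98 (limma adjusted p = 0.0221). PRN6.5G0215783 (2240695 to 2258124), beyond the ubiquitin ligase family gene Trim10, was higher by 1.45 (limma adjusted p = 0.0263). The remaining member on this side was PRN6.5G0216289, antisense to Itpr3, which was not on the list of members to be named and differed by 0.98 (limma adjusted p = 0.0274).

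The 5 members higher in SHR/OlaIpcv were led by PRN6.5G0216215 in the introns of Vps52 and Wdr46. It measured 2.43, 1.80 and 2.07 in BN-Lx/Cub and 4.99, 4.27 and 4.18 in SHR/OlaIpcv, a difference of -2.38 (SE 0.381, limma adjusted p = 3.67e-06), 5.2-fold higher in SHR. Vps52 differed by -0.26 and did not pass (limma adjusted p = 0.672). PRN6.5G0215784 (2267586 to 2285627), the next member after PRN6.5G0215783 on the same strand, measured 2.69, 2.38 and 2.36 against 4.39, 4.64 and 4.57. These neighbouring members therefore differed in opposite directions, the second by -2.05 (SE 0.399, limma adjusted p = 0.000225). PRN6.5G0216164, antisense to exons of the lipid hydrolase gene Abhd16a (5089553 to 5098398), measured 2.95, 1.81 and 3.05 against 4.04, 4.62 and 3.69. It differed by -1.51 (limma adjusted p = 0.00516), and by -0.87 without replicate 2, the animals that lie furthest apart (limma adjusted p = 0.613). PRN6.5G0216126, antisense in introns of Ddx39b and Hspa1b as annotated (4898701 to 4901130), differed by -1.46 (limma adjusted p = 0.0361). It lost its call without replicate 1, 2 or 3 in turn (limma adjusted p = 0.227, 0.0802 and 0.288). PRN6.5G0216055, antisense in introns of LOC103689965 and the ubiquitin ligase gene Rnf5 (4396379 to 4401389), measured 4.18, 4.43 and 4.50 against 6.03, 4.90 and 5.51, and differed by -1.11 (limma adjusted p = 0.0403). Its difference was -0.74 without replicate 1 (limma adjusted p = 0.399) and -1.16 without replicate 3 (limma adjusted p = 0.245).

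The calls were not equally firm. PRN6.5G0215609, PRN6.5G0215618, PRN6.5G0215627, PRN6.5G0215784 and PRN6.5G0216215 passed under every alternative in which this contrast was fitted. Each of the other called members named by rule lost its call with the batch or the batch of the sample title as a covariate, while its difference kept its direction. The differences with the one and the other covariate were 1.44 and 1.47 for PRN6.5G0215615, 2.27 and 2.18 for PRN6.5G0215983 and -1.65 and -1.63 for PRN6.5G0216164, close to those without a covariate. They were smaller for PRN6.5G0215598 (0.68 and 0.78) and larger for PRN6.5G0216126 (-2.19 and -2.18). Summed microglial markers were 41 in BN-Lx/Cub and 39.5 in SHR/OlaIpcv. The sums were 48 and 46.7 for oligodendrocytes, 39.1 and 38.2 for astrocytes and, in the other direction, 22.7 and 26.2 for liver. The part of these markers in the differences was not tested.

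**Figure D3:**
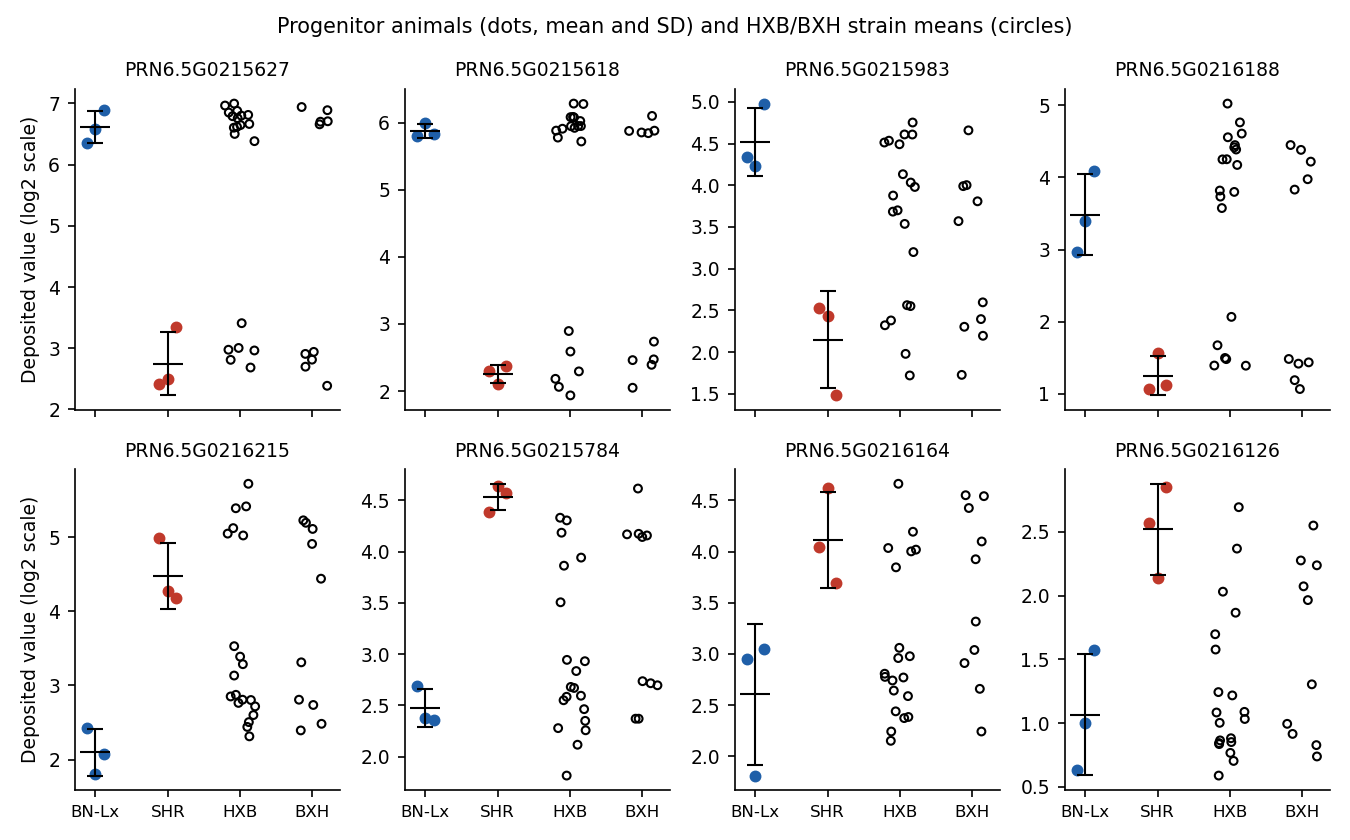
Deposited values (y axis, log2 scale) of 8 members called between the progenitors. Dots are the 3 animals of BN-Lx/Cub and of SHR/OlaIpcv with their mean and SD, and open circles are the means of the 20 HXB and 10 BXH strains. For PRN6.5G0215627 and PRN6.5G0215618 the strain means fall into separate upper and lower groups at the levels of the progenitors, while for PRN6.5G0216126 they lie close together, the strains of BN-Lx type at means of up to 1.304 and those of SHR type from 1.577 on.

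The 90 HXB/BXH animals were used to follow segregation. None of them enters the progenitor means, although they share the pooled residual variance of that fit. Over these animals, 44 members (21.7%) were called for strain, where the background is 10.4% of all features. With batch as a covariate 46 members (22.7%) were called against 11.5%. All 17 members that differed between the progenitors were among the 44, as were 27 of the 186 others (14.5%). In the whole table, 88% of the features that differed between the progenitors were called over the HXB/BXH strains, and 8.7% of the others. Of the features that differed between the progenitors, 26 of 26 named features of the region and 32 of 37 unnamed features of the rest of chromosome 20 were called over the HXB/BXH strains. More than 1 cluster of the 30 strain means was fitted for 40 members (19.7%; background 14.9%). For members called between the progenitors with a difference of at least 1, it was fitted for 13 of 14, compared with 30 of 36 such unnamed features of the rest of chromosome 20, 16 of 20 named features of the region and 74.3% in the whole table.

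The means of these 14 members were used to set each HXB/BXH strain to the nearer progenitor. By the majority of the members, 19 of 30 strains were of BN-Lx type (63.3%, exact Clopper-Pearson 95% interval 43.9 to 80.1%) and 11 were of SHR type. Among HXB strains 14 of 20 were of BN-Lx type and among BXH strains 5 of 10, a difference that did not pass Fisher's exact test (two-sided p = 0.425). In 19 strains the 14 members were unanimous, and 13 of 420 calls went against the majority of their strain. When calls near the midpoint between the progenitors were not made, 28 of the 420 dropped out, 2 went against the majority and the same 19 strains were of BN-Lx type. The calls against the majority fell mostly on PRN6.5G0215607 (5 strains) and PRN6.5G0216215 (BXH9/Cub, HXB22/Ipcv and HXB7/Ipcv). The types of the strains were read from expression alone, since genotypes were not used here.

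The separation reached single animals. With each strain typed by the other 13 members, 57 animals were of BN-Lx type and 33 of SHR type, and the animals of both types did not overlap for 6 of the 14 members. With the types set by all 14, no overlap was found for 8 of the 203 members, where the background is 0.0231% of all features (23 features). Among features called between the progenitors with a difference of at least 1, it was found for 7 of the 20 named features of the region, 1 of the 36 unnamed features of the rest of chromosome 20 and 16 of 1830 in the whole table. Nothing particular to the members is read from their count, since they set the types. PRN6.5G0215627 ran from 6.18 to 7.48 with a median of 6.74 in animals of BN-Lx type and from 2.29 to 3.82 with a median of 2.89 in those of SHR type. PRN6.5G0215618 ran from 5.22 to 6.69 (median 6.01) against 1.55 to 3.54 (median 2.47). Both sit close to the progenitor values given above. PRN6.5G0215608 ran from 7.31 to 8.64 against 4.00 to 6.33, and PRN6.5G0215609 from 6.31 to 7.12 against 4.93 to 5.68. PRN6.5G0216188 ran from 2.90 to 5.52 against 0.97 to 2.41. In the opposite direction, PRN6.5G0216215 ran from 1.44 to 3.91 in animals of BN-Lx type and from 4.21 to 6.08 in those of SHR type, without overlap although 3 strain means lay nearer to the other progenitor.

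The remaining members used for typing all overlapped, and overlap was wide for 3 of them. PRN6.5G0215607 had a median of 4.25 in animals of BN-Lx type and 3.35 in those of SHR type, with 19 of 33 of the latter at or above the lowest of the former. PRN6.5G0215783 had medians of 4.12 and 3.29, with 22 of 57 animals of BN-Lx type at or below the highest of SHR type. PRN6.5G0216126 had medians of 0.99 and 2.21, and its lowest animal of SHR type, at 0.52, lay under all animals of BN-Lx type. For PRN6.5G0215784, 15 of 57 animals of BN-Lx type lay at or above the lowest of SHR type. For PRN6.5G0215615, 11 of 33 animals of SHR type lay at or above the lowest of BN-Lx type. For PRN6.5G0215983, PRN6.5G0216055 and PRN6.5G0216164, at most 5 animals of a type reached into the range of the other.

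**Figure D4:**
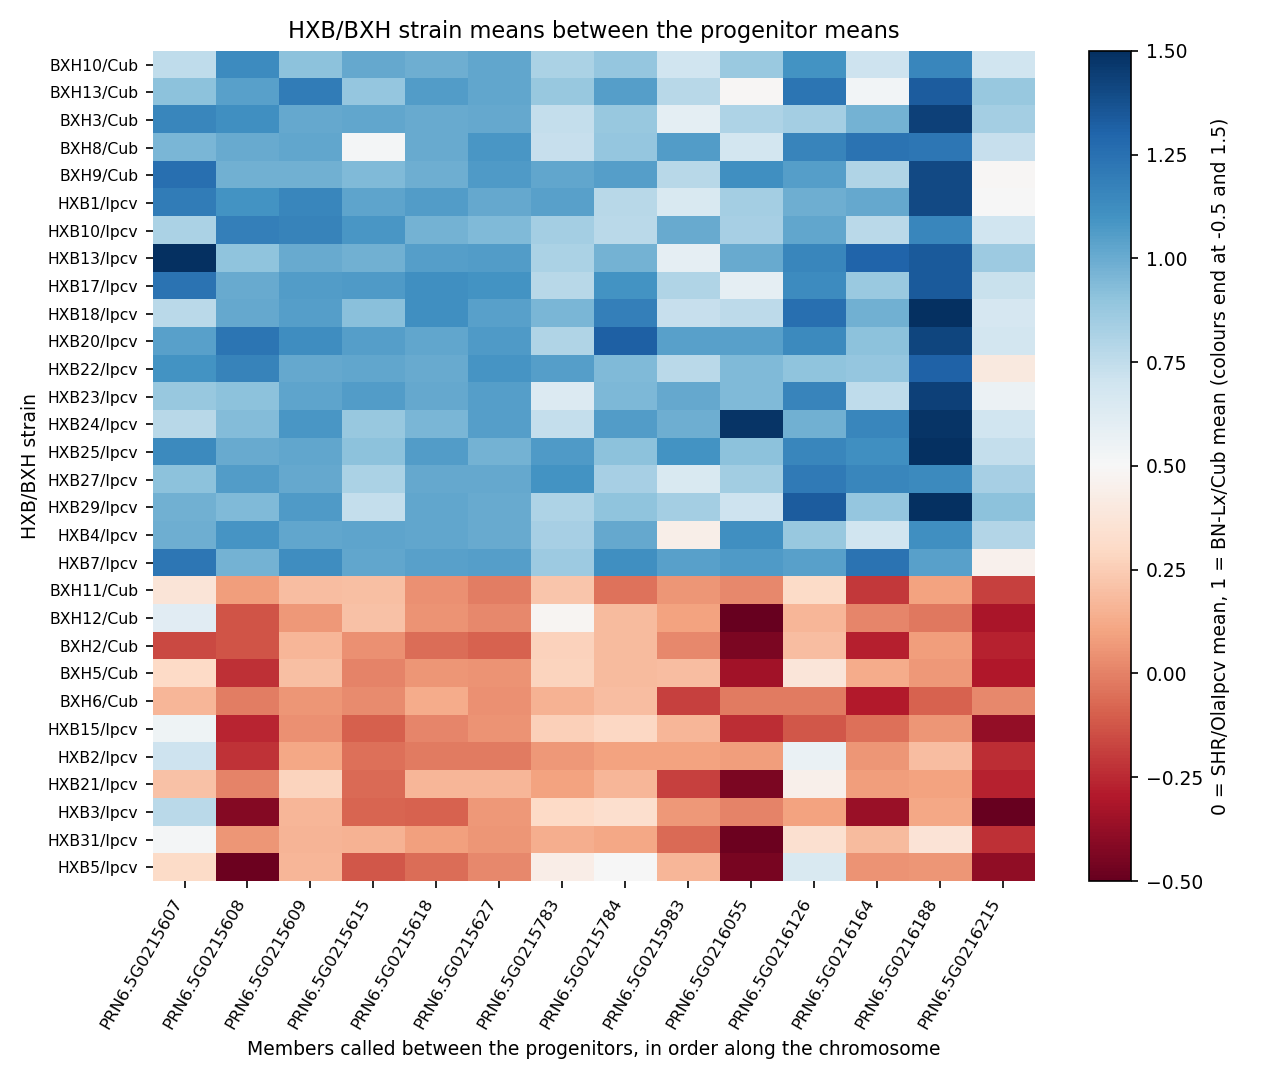
Each cell is the mean of an HXB/BXH strain (rows) for a member called between the progenitors (columns, in order along the chromosome), scaled so that 0 is the SHR/OlaIpcv mean and 1 the BN-Lx/Cub mean. The 19 strains of BN-Lx type are mostly blue and the 11 of SHR type mostly red. The column of PRN6.5G0215607 departs from this, with 5 of the 11 strains of SHR type on the BN-Lx/Cub side (0.52 to 0.77).

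Agreement with the type of the members was counted past 7 Mb as well. Of the 36 unnamed features of chromosome 20 that differed between the progenitors by at least 1, 6 start within 2.24 Mb beyond the region and none between 2.24 and 10.7 Mb beyond it. For these 6 the strains whose side matched the type of the members numbered 18 to 30 of 30 (median 28.5). For 17 features 10 to 30 Mb beyond it the median was 16 strains (11 to 18), and for 13 features 30 to 60 Mb beyond it the median was 16 (10 to 19).

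The reciprocal crosses were compared over strain means. No member was called between the 20 HXB and the 10 BXH strain means in limma, where the background is 0.534% of all features. At an unadjusted p under 0.05 there were 17 members (8.37%, against 10.7% of all features), the lowest limma adjusted p was 0.176, and the largest absolute difference was 0.842. A fit over all animals with strain as a random block also called 0 members.

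Not all strongly strain-dependent members were called over the HXB/BXH strains. That test covers fewer strains, so a missing call does not show that a member is uniform among them. Of the 100 members called over all strains, 58 (58%) were not called over the HXB/BXH strains, compared with 54.4% of the strain-called named features of the region, 76.6% of the unnamed features of the rest of chromosome 20 and 72.9% in the whole table. They include 5 of the 30 with an R2 of 0.7 or more. The first of these was PRN6.5G0216292 (5658863 to 5687263, minus strand, 4 exons, R2 = 0.85), antisense to exons of Itpr3, a calcium release channel gene. It measured 4.71, 5.90 and 4.97 in BN-Lx/Cub and 4.98, 5.08 and 4.97 in SHR/OlaIpcv, and the HXB/BXH strain means lay between 4.68 and 5.74. It measured 2.26, 2.23 and 2.18 in LEW/Crl, 2.79, 2.73 and 2.89 in LEW/SsNHsd, and 2.17, 2.67 and 2.69 in SS/JrHsd. No animal of these 3 strains came near the progenitors. F344/Stm (2.60 ± 0.42, SD, n = 3), F344/NHsd (2.65 ± 0.18, SD, n = 3), LE/Stm, SR/JrHsd and WKY/NCrl (3.15 ± 0.39, SD, n = 3) were low as well. COP/CrCrl (5.67 ± 0.42, SD, n = 3), DA/OlaHsd (5.57 ± 0.08, SD, n = 3), ACI/SegHsd (5.06 ± 0.37, SD, n = 3) and SHRSP/A3NCrl (4.82 ± 0.61, SD, n = 3) were high. In F344/NCrl the library labelled 2 stood at 5.38 and the others at 2.87 and 3.61.

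The other 4 also did not pass the test between the progenitors. Over the HXB/BXH strains the limma adjusted p was 0.95 for PRN6.5G0216292, 0.714 for PRN6.5G0215975 and 0.783 for PRN6.5G0216415. It lay closer to the threshold for PRN6.5G0215995 (limma adjusted p = 0.0678) and PRN6.5G0216108 (limma adjusted p = 0.0972). PRN6.5G0215975 (3734627 to 3743367), antisense to exons of Cchcr1, a coiled-coil protein gene, had means of 3.54 in BN-Lx/Cub and 4.16 in SHR/OlaIpcv, and the median of the inbred strain means was 2.14. LE/Stm, at 3.85, was high as well. PRN6.5G0216415 (6812801 to 6834057), antisense in an intron of the peptidyl-prolyl isomerase gene Ppil1, had means of 5.71 and 5.58 against an inbred median of 3.48. F344/Stm (5.56) and LE/Stm (5.97) were as high as the progenitors. The strain call of PRN6.5G0216415 held with the batch characteristic as a covariate but not with the batch of the sample title (limma adjusted p = 0.494). PRN6.5G0215995 (3815866 to 3822658), antisense to exons of Hsd17b8 and the zinc transporter gene Slc39a7, had means of 6.84 and 6.47 against an inbred median of 6.00. SHRSP/A3NCrl (6.61) and LE/Stm (6.51) stood near the progenitors. PRN6.5G0216108 was the only 1 of the 5 that was low in both progenitors (0.75 and 1.43, inbred median 2.03). Where the HXB/BXH family and its progenitors differ from the other inbred strains, source and storage of the tissue cannot be told apart from strain.

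Conversely, members can segregate without a progenitor call. PRN6.5G0216192 overlaps the span of the cytokine gene Tnf on the opposite strand, and PRN6.5G0216205 that of Vps52 on the same strand. Both reach past the gene and share no exon bases with it. They were called over the HXB/BXH strains (limma adjusted p = 3.3e-12 and 7.05e-09), while their progenitor differences of -0.83 and 0.75 did not pass (limma adjusted p = 0.663 and 0.794). These members and PRN6.5G0216289 were named after their values were seen.

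PRN6.5G0216413 (6807928 to 6820189, minus strand, R2 = 0.605) had a mean of 7.38, the highest of the members on the deposited scale after PRN6.5G0215598 and PRN6.5G0215602. Its strain call did not hold with batch as a covariate (limma adjusted p = 0.48), with the batch of the sample title (0.313) or without replicate 2 (0.152).

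The modality of the strain means was read from normal mixtures over 43 strains, those of the study without F344/NCrl and F344/NHsd. More than 1 cluster was fitted for 52 members (25.6%; background 17.5%), of which 45 had 2 clusters and 7 had 3. Of the 52, 43 were also called for strain (82.7%, against 84.8% of such named features of the region and 62.6% in the whole table). In 23 of these 43 BN-Lx/Cub and SHR/OlaIpcv fell into different clusters (53.5%, against 48.8% and 36.8%). Without the libraries labelled SHRSP/A3NCrl 1, F344/NCrl 2 and all LE/Stm, 60 members had more than 1 cluster (background 17.2%), and without LEW/Crl 54 (background 17.5%).

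The members did not share 1 grouping of the classic inbred strains. For PRN6.5G0215602 and PRN6.5G0215608 the low cluster held LEW/Crl, LEW/SsNHsd, SHR/OlaIpcv and WKY/NCrl, and for PRN6.5G0215598 it also held SHRSP/A3NCrl. The library labelled SHRSP/A3NCrl 1 measured 8.62 for PRN6.5G0215602 and 8.45 for PRN6.5G0215608, while SHRSP/A3NCrl 2 and 3 measured 7.00 and 6.85 for the former and 5.97 and 6.25 for the latter. The SHRSP/A3NCrl mean, which placed the strain in the high cluster of both, was raised by that library. For PRN6.5G0215627 it held SHR/OlaIpcv, SHRSP/A3NCrl and LE/Stm, while WKY/NCrl, at 6.64 ± 0.18 (SD, n = 3), was as high as BN-Lx/Cub. PRN6.5G0215618 and PRN6.5G0216188 had BN-Lx/Cub alone among the inbred strains in the high cluster. PRN6.5G0215784 had it alone in the low cluster. PRN6.5G0216055 and PRN6.5G0216215 had SHR/OlaIpcv and SHRSP/A3NCrl alone in the high cluster. PRN6.5G0216222, antisense to exons of the class I gene RT1-A1, was in the high cluster in ACI/SegHsd, COP/CrCrl, DA/OlaHsd, F344/Stm, SR/JrHsd and SS/JrHsd and in no HXB/BXH strain. PRN6.5G0216408 was in the low cluster in ACI/SegHsd, COP/CrCrl and DA/OlaHsd alone among the inbred strains. Both were named after their values were seen, and with gains of 1.37 and 2.61 in the Bayesian information criterion neither keeps its clusters under the stricter rule, a gain of more than 6.

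**Figure D5:**
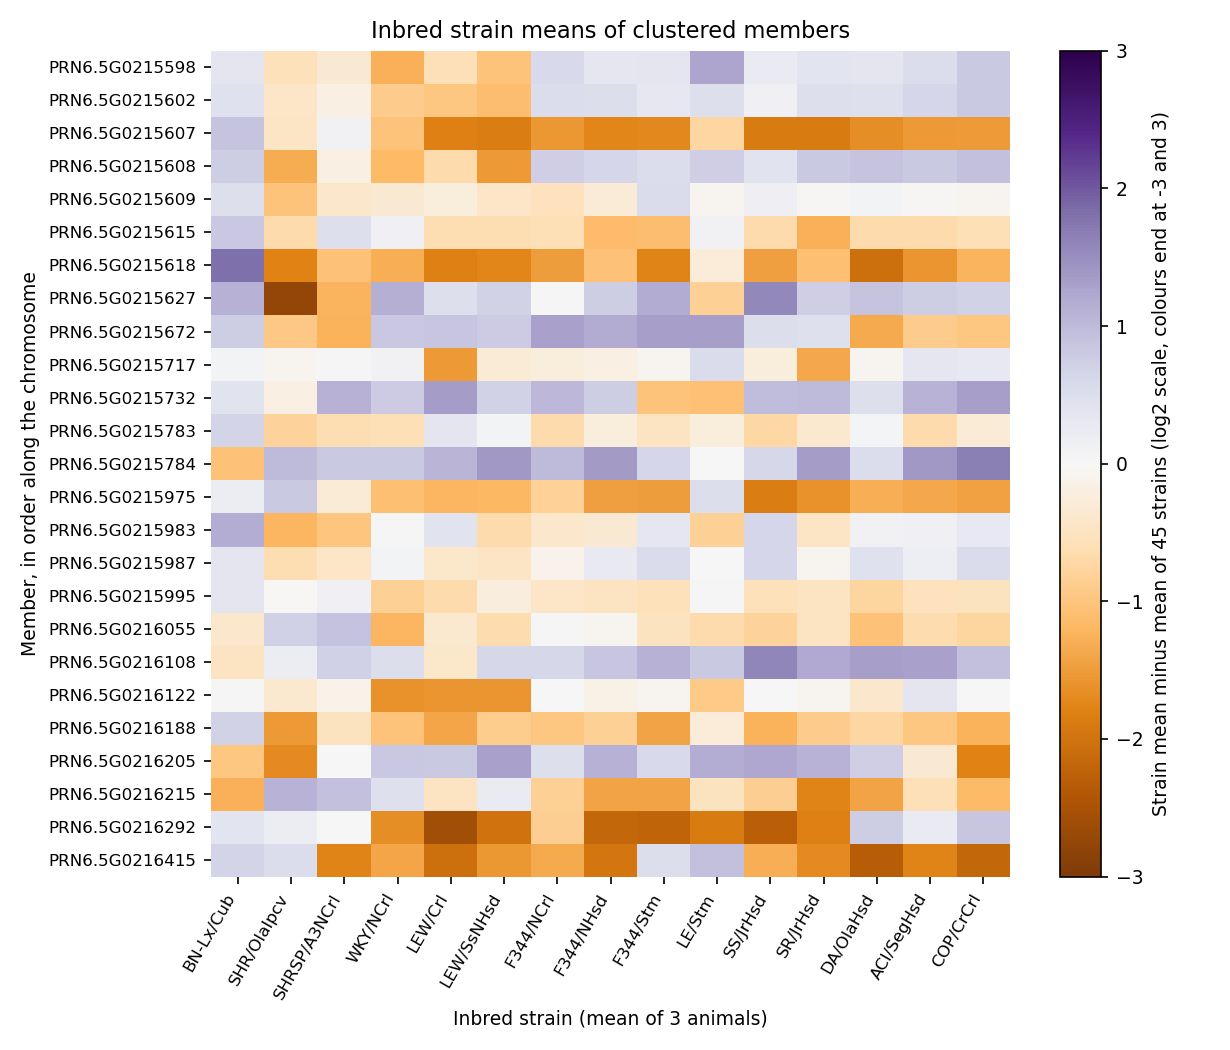
Strain mean minus the mean of the 45 strains (colour, log2 scale) for the 25 members called for strain whose clusters improved the Bayesian information criterion by more than 6 (rows, in order along the chromosome) in the 15 classic inbred strains (columns). DA/OlaHsd, ACI/SegHsd and COP/CrCrl show like colours in most rows, and SHR/OlaIpcv and WKY/NCrl differ in many.

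Pairs of classic inbred strains were compared next. Between SHR/OlaIpcv and WKY/NCrl 13 members were called at 5% FDR in limma (6.40%; background 3.65%). By the batch characteristic the libraries of these strains in this table shared no batch, and 6 members were called with batch as a covariate and 11 with the batch of the sample title. The shares of all features for pair counts under such settings are not given here. Between F344/NHsd and LEW/SsNHsd 6 were called (2.96%; background 0.865%), between SHR/OlaIpcv and SHRSP/A3NCrl 2 (background 0.525%) and between LEW/Crl and LEW/SsNHsd 1 (background 0.296%). No member was called between DA/OlaHsd and ACI/SegHsd (background 0.380%), ACI/SegHsd and COP/CrCrl (background 0.514%) or SS/JrHsd and SR/JrHsd (background 0.644%). For DA/OlaHsd and ACI/SegHsd the count was 1 with the batch of the sample title as a covariate and 1 without replicate 3, and the only call between LEW/Crl and LEW/SsNHsd was lost with the batch characteristic as a covariate. At the last 3 background shares about 1 of 203 members would be called, so a count of 0 lies near the background. Over the 7 pairs 20 members were called in at least 1 (9.85%; background 5.82%).

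Of the 13 members that differed between SHR/OlaIpcv and WKY/NCrl, PRN6.5G0215627 had the largest difference, -3.89 (limma adjusted p = 4.89e-13). PRN6.5G0216205 followed with -2.53 (limma adjusted p = 0.00133), where the SHR animals were widely spread (SD 1.75, n = 3). Of the 8 members higher in SHR, PRN6.5G0216293 had the largest difference, 2.28 (limma adjusted p = 0.0341), and PRN6.5G0215995 the smallest, 0.84 (limma adjusted p = 0.0274). Others among them were PRN6.5G0216055 by 1.93 (limma adjusted p = 1.35e-05), PRN6.5G0215975 by 1.89 (limma adjusted p = 0.00264) and PRN6.5G0216292 by 1.86 (limma adjusted p = 0.00341). Between F344/NHsd and LEW/SsNHsd, the RT1-CE10 members PRN6.5G0215608, PRN6.5G0215602 and PRN6.5G0215598 were higher in F344/NHsd by 2.20, 1.63 and 1.36, as was PRN6.5G0216122 by 1.43. PRN6.5G0216192 and PRN6.5G0216215 were lower (differences -1.88 and -1.66). PRN6.5G0216122 and PRN6.5G0216293 were named after their values were seen. The LEW/SsNHsd animals of PRN6.5G0215608 measured 6.23, 6.36 and 3.97, and its difference was 1.42 without the lowest of them. The 2 calls between SHR/OlaIpcv and SHRSP/A3NCrl were PRN6.5G0215627, with a difference of -1.52, and PRN6.5G0216415, with 2.31. Without the library labelled SHRSP/A3NCrl 1 these differences were -0.82 and 1.88. By the same characteristic the libraries of these strains in this table shared no batch either, and 1 member was called with batch as a covariate and 0 with the batch of the sample title. Without the libraries labelled SHRSP/A3NCrl 1, F344/NCrl 2 and all LE/Stm, 3 members were called for this pair.

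The distance between strains over the members was described by the root mean square difference of the 203 strain means. ACI/SegHsd and COP/CrCrl were the closest of 105 inbred pairs (0.478), and at rank 3 over the unnamed features of the rest of chromosome 20 (0.519). SR/JrHsd and SS/JrHsd were at rank 3 (0.532) and at rank 95 over the unnamed features of the rest of chromosome 20 (0.863). The latter rank is not particular to this pair, since every pair with SR/JrHsd lay at ranks 92 to 105 over those features. SHR/OlaIpcv and WKY/NCrl were at rank 69 on both (0.803 over the members). Strains of other names were also close over the members, with F344/NHsd at rank 2 to SS/JrHsd (0.529) and at rank 4 to SR/JrHsd (0.532). The LEW/Crl and LEW/SsNHsd substrains were at rank 8 (0.573), and SHR/OlaIpcv and SHRSP/A3NCrl at rank 23 (0.637).

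Named genes of the region gave the frame for these values. Of a list of 59 MHC genes 31 were found, as 62 features with a median R2 of 0.513. Of the features, 37 (59.7%; background 36.7%) were called for strain. Counted by gene, 18 of the 31 were called at their highest feature. Between the progenitors 10 of the 62 features were called (background 2.10%), 9 higher in BN-Lx/Cub and 1 higher in SHR/OlaIpcv. The 9 include PRN6.5G0215603, PRN6.5G0215612 and PRN6.5G0215614 of RT1-CE10, so they are not separate genes. Over the HXB/BXH strains 20 features were called (background 10.4%). The class II chain gene RT1-Ba differed by 2.74 (R2 = 0.863, limma adjusted p = 2.29e-12) and RT1-Da by 1.46 (limma adjusted p = 0.000446), both higher in BN-Lx/Cub. The feature of RT1-A1 that was higher in SHR/OlaIpcv (PRN6.5G0216208) differed by -2.27 (limma adjusted p = 0.0011), while the main feature of that gene (PRN6.5G0216206, R2 = 0.819) differed by 0.11 and did not pass (limma adjusted p = 0.965).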

How the data were processed

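RNA expression of brain tissue was measured in 135 animals of 45 strains. The authors trimmed reads with cutadapt (version 1.9.1), removed ribosomal reads with Bowtie2 (2.3.4.3), aligned the rest with HISAT2 (2.1.0) to strain-specific rn6 genomes, assembled transcripts with StringTie (1.3.5) and estimated counts with RSEM (1.3.1), per the labels. The authors dropped features with low counts, removed 1 factor of unwanted variation and applied the regularized log of DESeq2, so the deposited values are on a log2 scale, which shrinks differences at low counts. The 1 deposited library column with a value over 100 was read as a score on that scale. Other columns that the authors deposited, the feature positions, were used as they stand. Of 37 values over 30 in the table, 0 lie in the members. Depth is unknown without counts, and the number of animals limits the precision.

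Strains and batches came from the labels. Batches numbered 13, 42 of 45 strains had animals in more than 1, and in 25 libraries the sample title gives another batch. Strain effects and pairs were tested with limma 3.58.1 in R 4.3.3 (Benjamini-Hochberg adjustment over all 99376 features), checked on simulated data. Clusters were fitted with mclust 6.1.1 (1 to 3 normal distributions of equal variance, lowest Bayesian information criterion), and scipy 1.17.1 in Python 3.11.15 gave the interval and Fisher's exact test. Replicate numbers were taken from the labels.

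The members and lists were chosen with earlier results of these data known. Members named by rule were, among those called for strain with a mean above the table median, the 8 with the highest R2 and the 4 largest differences each way between the progenitors, and further the 3 highest means, the 2 highest R2 with 3 clusters and the 2 on each side of 7 Mb. The members used to type strains and the 5 of high R2 not called over the HXB/BXH strains were added. Alternatives were batch covariates, a replicate block, leaving out each replicate number, doubtful libraries or LEW/Crl, a filter on low means, members of 2 or more exons, other strain sets and a stricter cluster rule. No sequences are given, since no genome of this build was used here.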

Additional observations from a re-analysis of the deposited data

How the results depend on the processing

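With the batch characteristic as a covariate, 59 members instead of 100 were called for strain, the median R2 was 0.423 instead of 0.445, 6 instead of 17 differed between the progenitors and 12 instead of 20 in at least 1 inbred pair. With the batch of the sample title the first 3 values were 64, 0.396 and 5. For this and the settings below, the shares of all features are not given here. These counts alone do not show whether an excess of the members remained. Tested only among features with a mean above the table median, where fewer members remain, 39 members were called for strain, the median R2 was 0.485, 8 differed between the progenitors, 22 were called over the HXB/BXH strains, 28 had more than 1 cluster, and 5 instead of 13 members called between the progenitors had more than 1 cluster in HXB/BXH. Members of 2 or more exons had a median R2 of 0.464. BXH strains alone, with fewer animals, called 28 members instead of 44, and the stricter cluster rule, a gain of more than 6, left 26 members instead of 52.

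Without replicate 1, 2 or 3 in turn, which leaves 2 animals a strain, 50 to 68 members were called for strain, 8 to 11 between the progenitors, 7 to 14 in an inbred pair and 25 to 31 over the HXB/BXH strains. The median R2 was then 0.579 to 0.594, where a feature with no strain effect averages 0.494. Of the inbred pair counts, that of SHR/OlaIpcv and WKY/NCrl fell from 13 to 3 without replicate 2 and to 6 without replicate 1, that of F344/NHsd and LEW/SsNHsd from 6 to 2 without replicate 3 and to 3 without replicate 2, and that of SHR/OlaIpcv and SHRSP/A3NCrl from 2 to 0 without replicate 2.

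With the replicate block the count for strain was 106, the median R2 0.461, and the counts for the progenitors, the inbred pairs and the HXB/BXH strains 17, 22 and 49. No label ties a number to a shared litter or day. Within-strain deviations of animals with the same number had a median correlation of 0.014 and 10.4% of 2926 pairs over 0.1, against -0.00698 and 4.11% of 5984 pairs with different numbers, so the numbers were not treated as a pairing because most pairs lay below 0.1. The settings without LEW/Crl, the pair differences without SHRSP/A3NCrl 1 or the lowest LEW/SsNHsd animal, and the progenitor contrast without the doubtful libraries, were chosen after seeing the data. Of the members described with a progenitor call, 126 values kept their side of the threshold and 41 lost the call, and no difference reversed. The cause of these changes was not tested beyond what each setting removes.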

Other observations

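The libraries labelled F344/NCrl 2 and SHRSP/A3NCrl 1 also differed from the other animals of their strains within these members, while the other 7 libraries nearest to another strain were not examined here. The library labelled F344/NCrl 2 measured 3.68 for PRN6.5G0215627, where F344/NCrl 1 and 3 measured 6.40 and 6.54, and 5.38 for PRN6.5G0216292, where they measured 2.87 and 3.61. The library labelled SHRSP/A3NCrl 1 measured 5.66 for PRN6.5G0215627, where SHRSP/A3NCrl 2 and 3 measured 3.43 and 3.72, and 5.68 for PRN6.5G0215618, where they measured 1.68 and 1.71. At PRN6.5G0215618 the F344/NCrl animals 1 and 3 measured 3.01 and 2.55, so that SHRSP/A3NCrl 1 was far from both labelled strains there, and near the 5.80 to 6.00 of BN-Lx/Cub. Over the 14 members used for typing, SHRSP/A3NCrl 1 was nearer to the BN-Lx/Cub mean in 9, compared with 2 and 1 for SHRSP/A3NCrl 2 and 3. F344/NCrl 2 was nearer to it in 1, compared with 6 and 5 for F344/NCrl 1 and 3.

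LE/Stm was uneven at PRN6.5G0215627, with 2.98, 5.02 and 6.00 in its 3 animals. The summed liver markers of the same animals, on the log2 scale, were 36.3, 101 and 70.3. Whether implausibly high single values enter these sums was not tested, nor was their part in this spread.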
